A study of Mus musculus with 18 samples.

Results

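Eef1a1, Eef1b2, Eef1d, Eef1g, Eef2, Rack1, Naca, Btf3, Pabpc1 and Tpt1 encode elongation factors and other parts of the translation machinery, and were chosen by name as mRNAs that carry a 5′ terminal oligopyrimidine (TOP) tract and do not encode ribosomal proteins. All 10 had reads in every library and are among the 6929 genes tested. They were followed in MIN6 cells, a mouse insulinoma line used as a model of the β-cell, that received either the solvent DMSO for 18 h (control) or 200 µM cyclopiazonic acid (CPA), an inhibitor of the calcium pump of the endoplasmic reticulum, for 1 h (CPA1, acute stress) or 18 h (CPA18, chronic stress). Each treatment was measured by mRNA-seq, which reads poly(A) RNA, and by Ribo-seq, which reads the RNA fragments covered by ribosomes, in 3 independent experiments, giving 18 libraries. The CPA1 cultures have no DMSO control of their own duration, so the single control serves both CPA times. Cell number and RNA per cell cannot be told apart in bulk libraries.

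A TOP mRNA begins at a cytosine that is followed by an unbroken stretch of pyrimidines. When the kinase complex mTORC1 is inactive, LARP1 binds the cap and this stretch and 4E-BP proteins occupy eIF4E, and TOP mRNAs leave polysomes and are stored; when mTORC1 is active again, they return to translation. Almost all ribosomal protein mRNAs belong to the class, together with those of elongation factors, the poly(A)-binding protein and some initiation factors, which makes it a switch for the making of the translation machinery itself.

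Pyrimidine runs near the annotated starts are shown because a tract at the start of the mRNA defines the class to which the 10 genes are counted. The RefSeq promoter table held entries for 7 of the 10 genes, and for each the longest run of a C followed by at least 4 further bases, each C or T, within 50 bases on either side of the annotated start is given in capitals, in 30 bases of GRCm38.p6 read 5′ to 3′ on the strand of the gene. The other strand was not searched.
Eef1a1 (chr9:78481710-78481739, minus strand): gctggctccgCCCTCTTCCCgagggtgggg
Eef1b2 (chr1:63176851-63176880, plus strand): tgcgtccgagcgCTTTCgttcaactccggc
Eef2 (chr10:81176635-81176664, plus strand): acgtcagcggtCTCTTCCgccgcagccgcc
Rack1 (chr11:48800347-48800376, plus strand): gaggccgCTCTTTCTTTTTCTCCacagggt
Naca (chr10:128035329-128035358, plus strand): ccgcaactcgttCTCTTaaagaggaaaccc
Btf3 (chr13:98316966-98316995, minus strand): ttacttccggCCTCCCTCTagctgccatct
Tpt1 (chr14:75845276-75845305, plus strand): cggtgacgtagccgagcgtgCCCTCTatat
Rack1 had the longest run, at 16 bases, followed by Eef1a1 at 10, Btf3 at 9 and Eef2 at 7, while Eef1b2 and Naca had the shortest, at 5. A run of at least 5 bases is common, since 79.7% of the 27025 genes in the table had one in the same window. Runs of at least 9 bases stood in 3 of the 7 genes, against 22.7% of all genes and 74.1% of 58 ribosomal protein genes. The runs of Eef1a1, Rack1 and Naca began 5 or 6 bases before the annotated start, and those of Eef2, Eef1b2 and Tpt1 began 15, 32 and 40 bases after it, so none of these 6 runs begins at the annotated start itself, and these windows do not show a tract shared by the genes.

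Counted reads per library ranged from 520960 to 4755030 in mRNA-seq and from 168129 to 1083297 in Ribo-seq, and the median Ribo-seq total was 929649 for control, 470602 for CPA1 and 203108 for CPA18. The part of this fall in depth in the results was not tested. Reads counted on the transcript of Lars2, the gene of the mitochondrial leucyl-tRNA synthetase, took 45.1%, 53.5% and 54.8% of the mRNA-seq reads of the control, CPA1 and CPA18 libraries of experiment 1, and 38.1% in CPA1 of experiment 2, against 4.75% to 15.1% in the other 5 mRNA-seq libraries and at most 3.51% in Ribo-seq. Whether these reads come from Lars2 mRNA or from other RNA that matches its transcript was not tested. RPKM (the count scaled to transcript length and to the library total) and the tests below use the library total, so that in the libraries rich in Lars2 the mRNA-seq values of all other genes are lower and the ratios of Ribo-seq to mRNA-seq are higher. Values with Lars2, Ins1 and Ins2 taken out of the total are therefore given beside the results they change. In 2 control libraries of experiment 2 the title and the description name different assays; they were used by title, and results without them are given. All 8 β-cell markers, among them Ins1, Ins2 and Pdx1, had reads in every library, with a summed level of 25141 to 249432 RPM (counts scaled to the library total). The summed level of 12 markers of other islet and pancreas cells was 25.8 to 268 RPM. Of these 12, the α-cell marker Gcg alone had reads in every library. The acinar marker Prss1 and the leukocyte marker Ptprc were at 0 in all 18 libraries, and the remaining markers had reads in some libraries.

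In control cells the 10 mRNAs covered a wide span of levels. Eef1a1, whose protein brings aminoacyl-tRNA to the ribosome, was the most abundant at 1623 ± 189 mRNA-seq RPKM (SD, n = 3), the 16th highest of the 6929 genes. Eef2, the factor that moves the ribosome along the mRNA after each peptide bond, followed at 1294 ± 432, Tpt1, the translationally controlled tumour protein, at 1293 ± 292, and Rack1, a scaffold on the small ribosomal subunit, at 931 ± 387. Of the 3 subunits of the complex that reloads eEF1A with GTP, Eef1g stood at 484 ± 207, Eef1b2 at 181 ± 77.4 and Eef1d at 17.8 ± 5.05 RPKM. Btf3 and Naca, the β and α subunits of the complex that meets nascent chains at the ribosome exit, stood at 224 ± 79.7 and 165 ± 45.9, and Pabpc1, the cytoplasmic poly(A)-binding protein, at 32.3 ± 12.2. The ranges of neighbours in this order overlapped everywhere except between Naca and Pabpc1.

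**Figure D1:**
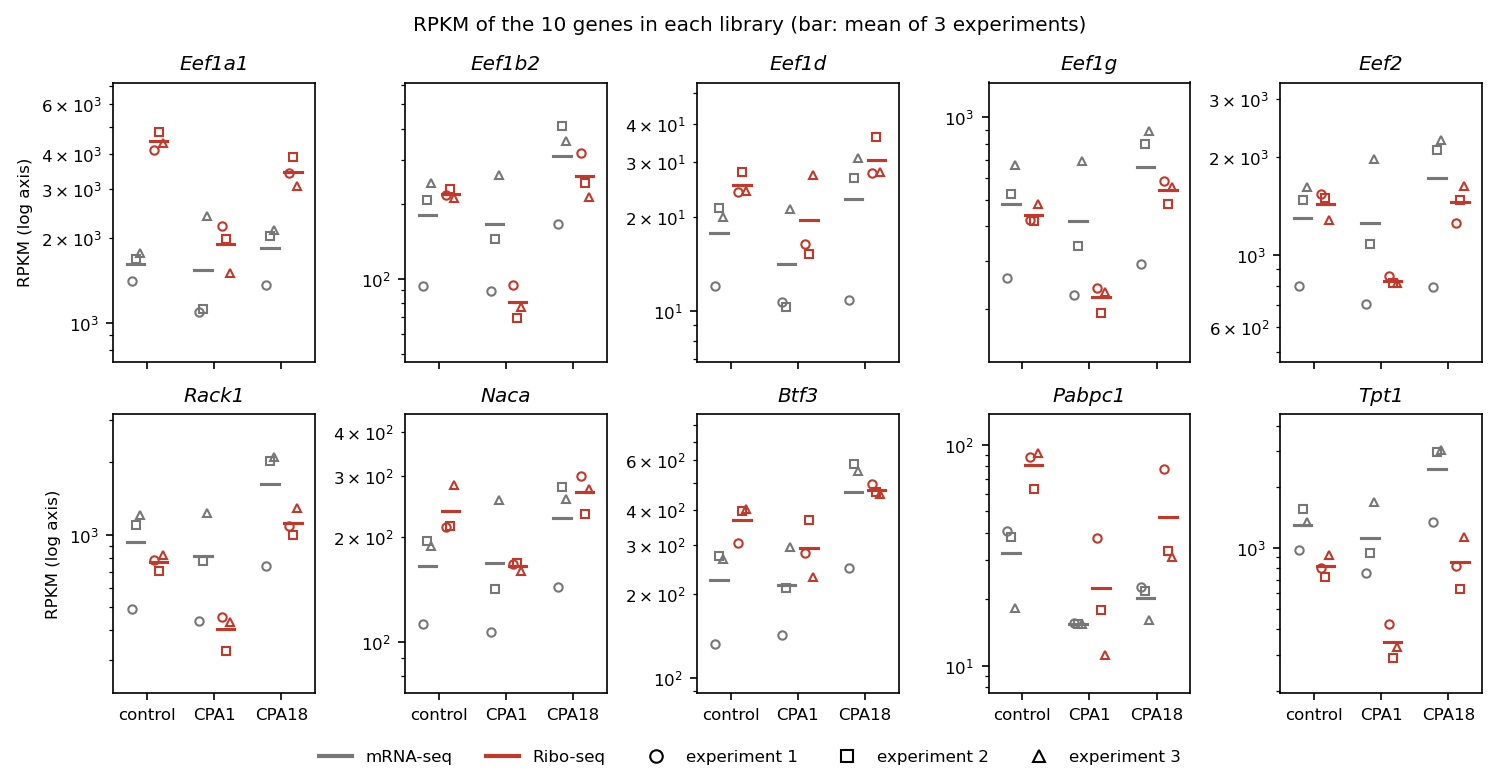
RPKM on a log axis for each of the 10 genes in control, CPA1 and CPA18, with mRNA-seq in grey and Ribo-seq in red; symbols mark the 3 experiments and bars the mean. In Ribo-seq the 3 CPA1 libraries lie below all 3 control libraries for 8 of the 10 genes (not for Eef1d and Btf3), while in mRNA-seq this is so for Pabpc1 alone.

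Ribo-seq gave a similar order in control, from Eef1a1 at 4426 ± 339 RPKM, the 8th highest gene, through Eef2 at 1432 ± 138, down to Pabpc1 at 80.8 ± 15.6 and Eef1d at 25.4 ± 2.10. Neighbours were apart except for Tpt1 and Rack1 and for Naca and Eef1b2, whose ranges overlapped. Levels between genes carry further limits. The RPKM divides footprints by the whole transcript, of which 35.1% is coding in Eef1b2 and 84.0% in Eef1g. For Naca, the reads were spread almost evenly over 3 transcripts of 1118, 1229 and 7034 bases, and for Eef1d 3 of 8 listed transcripts lacked reads in some library and were left out. Of the windows of 28 bases in Eef1a1, 36.8% also occur in annotated transcripts of other genes, against 12.9% in Eef1b2, 1.22% in Pabpc1, 0.0139% in Naca and 0 in the other 6 genes, so that the reads of Eef1a1 and Eef1b2 could have been divided with near-identical sequences; the part of such reads in the changes with CPA was not tested.

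After 1 h of CPA, ribosome footprints on most of these mRNAs fell. Of the 10 genes, 7 had fewer Ribo-seq reads in CPA1 than in control (edgeR's quasi-likelihood test, Benjamini-Hochberg adjusted p under 0.05) and none had more, against 2.92% of all genes called lower and 3.75% called higher. The median change of the 10 genes was -0.96 on the log2 scale, against 0.07 over all genes tested. The shares of all genes are not matched for level. In control Ribo-seq the 10 genes ranked from 8th (Eef1a1) to 2157th (Eef1d) of 6929, and the part of read depth in the number of calls was not tested. The same 7 genes were called under each of the 16 alternative settings, among them the removal of each experiment and of the control library with the disputed label.

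Within the elongation factors, the fall was steepest for Eef1b2, a subunit that carries out nucleotide exchange on eEF1A. Its Ribo-seq RPKM was 217, 228 and 212 in the control libraries of experiments 1, 2 and 3 and 94.7, 69.8 and 77.0 in CPA1. All 3 CPA1 libraries lay below all 3 control libraries, and the level fell to 0.366 times control (log2 change -1.45 ± 0.18, SE, adjusted p = 5.64e-10, edgeR). Eef1a1 went from 4109, 4783 and 4385 RPKM in control to 2209, 1992 and 1503 in CPA1. These groups were likewise apart, with a log2 change of -1.23 ± 0.15 (adjusted p = 2.11e-10, edgeR). Eef1g, the subunit that anchors the exchange complex, went from 421, 419 and 482 RPKM to 239, 194 and 231. The level fell to 0.501 times control (adjusted p = 1.74e-06, edgeR), again without overlap. The Ribo-seq RPKM of Eef2 was 1535, 1487 and 1275 in control and 857, 819.7 and 818 in CPA1, the tightest group of the set. Its fall, by 0.78 ± 0.15 on the log2 scale (adjusted p = 5.56e-05, edgeR), was the smallest among the called genes. Eef1d, the remaining subunit of the exchange complex and the member with the fewest reads, went from 24.1, 27.9 and 24.3 RPKM to 16.4, 15.2 and 27.3. Its CPA1 libraries overlapped control because experiment 3 was as high as control, and the change was not called, with a 95% confidence interval of -0.96 to 0.22 on the log2 scale from 12 to 54 reads per library in these groups.

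Among the other genes, Pabpc1 changed most. Its Ribo-seq RPKM was 87.9, 62.8 and 91.6 in control and 38.0, 17.9 and 11.2 in CPA1. The groups did not overlap, and the level fell to 0.261 times control (log2 change -1.94 ± 0.24, adjusted p = 1.81e-10, edgeR), the largest fall of the 10, although with 15 to 56 reads per CPA1 library. Tpt1 went from 798, 722 and 923 RPKM to 423, 290.4 and 329, and Rack1 from 780.0, 703 and 824 to 455, 327 and 430.4. Both were called, with log2 changes of -1.23 ± 0.17 (adjusted p = 8.31e-09, edgeR) and -0.93 ± 0.16 (adjusted p = 3.53e-06, edgeR), and neither overlapped control. The nascent chain genes differed from these. Naca went from 214, 215 and 282 RPKM in control to 168, 169 and 160 in CPA1, apart in every library, but its log2 change of -0.43 ± 0.17 was not called (adjusted p = 0.141, edgeR). Btf3 stood at 303, 397 and 402 RPKM in control and 279, 367 and 230 in CPA1, and its interval of -0.68 to 0.01 on the log2 scale included 0. In all, 8 of the 10 genes had their CPA1 libraries below every control library in Ribo-seq, against 8.99% of all genes.

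**Figure D2:**
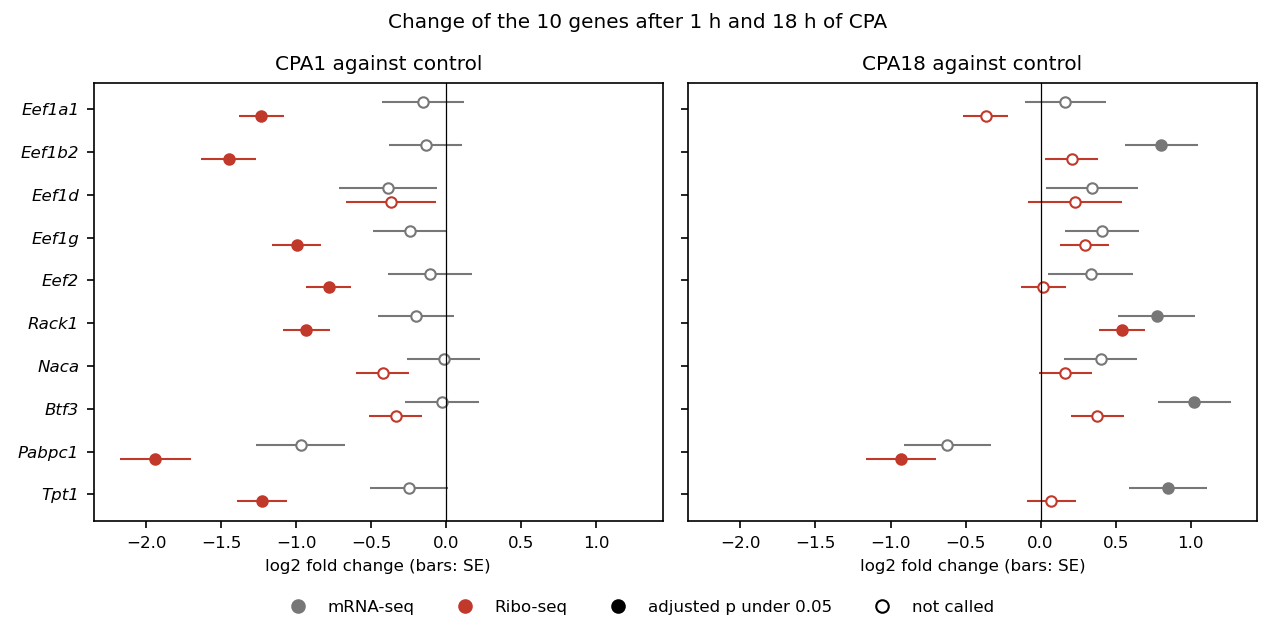
Log2 fold change and SE of each gene in mRNA-seq (grey) and Ribo-seq (red) for CPA1 (left) and CPA18 (right) against control; filled points passed an adjusted p of 0.05. The 7 filled red points in CPA1 lie between -0.78 and -1.94, and no grey point in that panel is filled.

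The amounts of the mRNAs gave no call after the same hour. None of the 10 genes was called in mRNA-seq in CPA1 against control by edgeR, against 0.433% of all genes called lower and 0.505% called higher, and 1 was lower at an unadjusted p under 0.05, against 4.13% of all genes. DESeq2 and limma called none either. The median change of the 10 genes was -0.18, against -0.12 over all genes. The single gene below 0.05 unadjusted was Pabpc1, at 40.5, 38.1 and 18.3 mRNA-seq RPKM in control and 15.7, 15.3 and 15.4 in CPA1. Its CPA1 libraries were below all control libraries, as in 1.78% of all genes, yet its log2 change of -0.97 ± 0.30 did not pass the adjustment (adjusted p = 0.0906, edgeR). For the other 9 genes the log2 changes lay between -0.39 and -0.02 with intervals that included 0. Those intervals are wide, reaching for Eef1a1 from -0.69 to 0.38.

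As a share of all Ribo-seq reads, the 10 genes held 1.59%, 1.68% and 1.61% in the control libraries, and 0.888%, 0.797% and 0.718% in those of CPA1. In CPA18 the share was 1.49%, 1.56% and 1.56%, near control but below each control library. The 95% Wilson intervals, which cover counting error only, reached from 0.695% to 0.914% in CPA1 and from 1.56% to 1.71% in control. In mRNA-seq the share was 0.763%, 1.24% and 1.32% in control and 0.632%, 0.855% and 1.60% in CPA1, with the low values in the libraries rich in Lars2. As a share of the reads outside Lars2, Ins1 and Ins2, the 10 genes held 1.58%, 1.73% and 1.95% of mRNA-seq reads in control and 1.57%, 1.73% and 2.15% in CPA1. On that scale the mRNA-seq groups covered nearly the same range, while the Ribo-seq share averaged 2.03% ± 0.0945 (SD, n = 3) for control, 0.997% ± 0.0942 for CPA1 and 1.69% ± 0.0455 for CPA18, with no overlap between treatments.

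**Figure D3:**
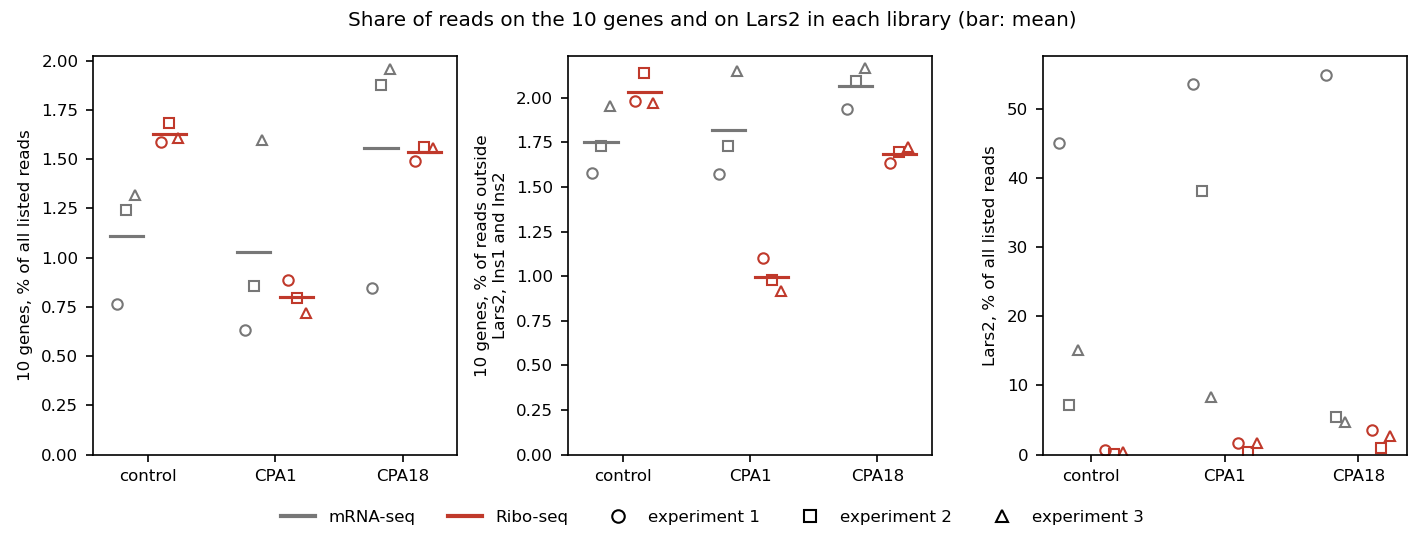
Percent of reads on the 10 genes out of all counted reads (left) and out of reads outside Lars2, Ins1 and Ins2 (middle), and percent of reads on Lars2 (right), by treatment and experiment, with mRNA-seq in grey, Ribo-seq in red and bars for the mean. The Ribo-seq shares of CPA1 lie below 1% on the left while control and CPA18 lie between 1.49% and 1.68%; 4 mRNA-seq libraries stand above 38% Lars2.

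Ribosome occupancy, the ratio of Ribo-seq to mRNA-seq, joins both measurements. In control, Pabpc1 and Eef1a1 had the highest occupancy of the set, at 2.94 ± 1.81 and 2.74 ± 0.234 (SD, n = 3), and Tpt1 the lowest, at 0.655 ± 0.177. With the library total as size, none of the 10 genes was called in CPA1 against control by edgeR's interaction test, in which 0 of all genes were called lower (0%) and 0.0866% higher. At an unadjusted p under 0.05, 7 of the 10 were lower, against 1.3% of all genes, and they were the 7 genes called in Ribo-seq. Eef1b2 had a log2 change of -1.31 ± 0.31 (adjusted p = 0.0622), Eef1a1 of -1.08 ± 0.30 (adjusted p = 0.182), Tpt1 of -0.98 ± 0.31 and Eef1g of -0.76 ± 0.30 (edgeR).

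These calls changed with the scale of the libraries. With Lars2, Ins1 and Ins2 out of the library totals, 6 of the 10 genes were called lower in occupancy, against 0.332% of all genes. They were Eef1b2 (-1.50 ± 0.24, adjusted p = 0.00450), Eef1a1 (-1.29 ± 0.20, adjusted p = 0.00438), Tpt1 (-1.19 ± 0.22, adjusted p = 0.0118), Eef1g (-0.96 ± 0.20, adjusted p = 0.0214), Rack1 (-0.94 ± 0.19, adjusted p = 0.0214) and Eef2 (-0.89 ± 0.19, adjusted p = 0.0286), each by edgeR. Pabpc1, at -1.20 ± 0.36, was not called on that scale, where its mRNA-seq change was -0.75 ± 0.21. TMM, DESeq2 size factors and centring on the median gene each gave 3 calls, where 0.173%, 0.159% and 0.13% of all genes were called lower, and DESeq2's own test gave 2, where 0.0577% were. Fits without the block, with limma or without any 1 of the experiments gave 0.

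Relative to the median gene of the same experiment, which removes the scale of each library, the occupancy of 9 of the 10 genes was lower in CPA1 than in control in all 3 experiments, against 14.5% of all genes. Eef1b2 changed by -1.49, -1.59 and -1.34 on the log2 scale in experiments 1, 2 and 3, and Eef1g by -0.97, -0.88 and -0.89. Both moved by a similar amount in each experiment. Pabpc1, by contrast, changed by -0.20, -0.90 and -2.56, so that its mean rested on experiment 3, in which its control mRNA-seq level was low. The exception was Eef1d, at -0.74, -0.22 and 0.31. The median of the 10 genes was 0.90 lower on the log2 scale than the median of all genes.

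**Figure D4:**
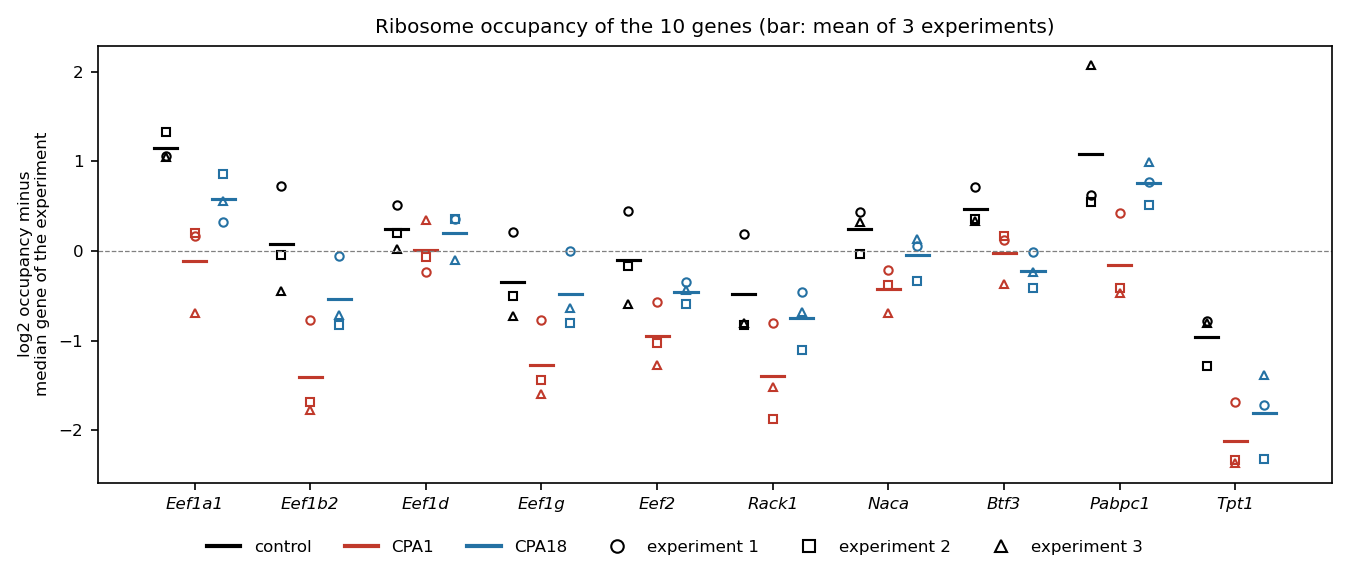
Log2 ribosome occupancy of each gene minus that of the median gene in the same experiment, for control (black), CPA1 (red) and CPA18 (blue); symbols mark experiments and bars the mean. CPA1 values lie below control in every experiment for all genes but Eef1d, and the CPA18 bar lies between those of control and CPA1 for all genes but Btf3, whose CPA18 bar (-0.22) is the lowest of the 3.

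By 18 h of CPA the footprints had risen again from their level at 1 h. In CPA18 against CPA1, 9 of the 10 genes rose in Ribo-seq (edgeR, adjusted p under 0.05), against 18.2% of all genes called higher and 5.41% lower. All CPA18 libraries lay above all CPA1 libraries for 9 genes, against 25% of all genes. These 9 included Eef1d, which was not called, and left out Pabpc1. Pabpc1 was called (1.01 ± 0.28, adjusted p = 0.00360, edgeR), at 77.5, 32.9 and 31.1 RPKM against 38.0, 17.9 and 11.2 in CPA1. It was called in 12 of 16 alternatives, and not without the block (adjusted p = 0.0571, edgeR). Eef1b2 rose most, by 1.66 ± 0.19 on the log2 scale, from 94.7, 69.8 and 77.0 RPKM to 320.3, 242 and 213 (adjusted p = 3.65e-12, edgeR). Rack1 rose by 1.48 ± 0.16, to 1082, 993 and 1286 RPKM, Tpt1 by 1.30 ± 0.18 and Eef1g by 1.29 ± 0.17. Eef1a1 rose by 0.87 ± 0.15 and Eef2 by 0.80 ± 0.15. The gene without a call was Eef1d, at 0.60 ± 0.35 with an interval of -0.08 to 1.28. The median of all genes was 0.33 in this comparison, and with libraries centred on the median gene 5 of the 10 were called higher, where 9.48% of all genes were called higher and 9.44% lower. With Lars2, Ins1 and Ins2 out of the totals Naca alone lost its call (0.41 ± 0.18, adjusted p = 0.106, edgeR). On that scale 12.1% of all genes were called higher and 7.59% lower. Eef1a1, Eef1b2, Eef1g, Rack1 and Tpt1 were the genes called in every setting.

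Against control, CPA18 left 8 of the 10 genes without a call in Ribo-seq. Rack1 was higher by 0.54 ± 0.15 (adjusted p = 0.00397, edgeR) and Pabpc1 lower by 0.93 ± 0.23 on the log2 scale (adjusted p = 9.53e-04, edgeR), against 25.6% of all genes called higher and 6.25% called lower. The CPA18 level of Pabpc1 was 77.5, 32.9 and 31.1 RPKM, so its libraries overlapped control through experiment 1, and without experiment 3 its change was -0.51 and not called (adjusted p = 0.154, edgeR). The median change of the 10 genes was 0.19, below the median of all genes at 0.42. With Lars2, Ins1 and Ins2 out of the totals, Rack1 was no longer called (0.36 ± 0.15, adjusted p = 0.0724) and Eef1a1 was called lower, at -0.55 ± 0.15 (adjusted p = 0.00340, edgeR). Over 16 alternatives Rack1 was called higher in 12 and Eef1a1 lower in 7. With TMM or DESeq2 size factors 6 of the 10 genes changed sign without a call, and with median centring 7. The CPA18 libraries of Eef1a1, at 3412, 3878 and 3077 RPKM, were all below control, as in 8.75% of all genes. Those of Eef1g, Btf3 and Rack1 were all above control, as in 31% of all genes. On the scale without Lars2, Ins1 and Ins2, 17.5% of all genes were called higher and 8.57% lower. The intervals of Eef2 (-0.27 to 0.31) and Tpt1 (-0.25 to 0.39) lay on both sides of 0.

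In mRNA-seq, against control, Btf3, Tpt1, Eef1b2 and Rack1 rose in CPA18 and none of the 10 fell (edgeR, adjusted p under 0.05), where 27% of all genes were called higher and 7.89% lower. Btf3 went from 132, 274 and 267 mRNA-seq RPKM in control to 248, 584 and 551 in CPA18, higher in each experiment though the groups overlap through experiment 1. Its log2 change was 1.02 ± 0.24 (adjusted p = 3.58e-04, edgeR). Tpt1 went from 978, 1554 and 1346 RPKM to 1339, 2972 and 3026, a change of 0.85 ± 0.26 (adjusted p = 0.00576, edgeR). Eef1b2 rose by 0.80 ± 0.24 and Rack1 by 0.77 ± 0.26. The median of the 10 genes was 0.41, next to 0.38 over all genes. All 4 calls need the experiment as a block, since without it none was made (adjusted p from 0.271 to 0.460, edgeR), where 1.43% of all genes were still called higher, and none remained without experiment 3. Without experiment 1, or without the disputed control library, Btf3 and Tpt1 were called and Eef1b2 and Rack1 were not; with libraries centred on the median gene, Eef1b2 (0.45) and Rack1 (0.44) were not called. With Lars2, Ins1 and Ins2 out of the totals the same 4 were called, at 0.56 to 0.79, where 21.2% of all genes were called higher, and Pabpc1 was called lower at -0.82 ± 0.20 (adjusted p = 0.00784, edgeR), against 12.4% of all genes called lower on that scale. The level of Pabpc1 in CPA18 was 22.7, 21.8 and 16.05 RPKM, against 40.5, 38.1 and 18.3 in control. Over 16 alternatives Btf3 was called higher in 14, Tpt1 in 13, and Eef1b2 and Rack1 in 10 each, and Pabpc1 was called lower in 5.

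From CPA1 to CPA18, Btf3, Tpt1, Rack1, Eef1b2, Eef1d and Eef1g rose in mRNA-seq, with log2 changes of 0.65 to 1.10, against 33.8% of all genes called higher and 5.77% lower, and the median of all genes was 0.50. The calls of Btf3, Tpt1, Rack1 and Eef1b2 stood in 15 of 16 alternatives, all but the fit without the block (1.57% of all genes called higher there), whereas Eef1d was called in 2 of the 16 alternatives and Eef1g in 6. With Lars2, Ins1 and Ins2 out of the totals their changes were 0.31 ± 0.21 and 0.24 ± 0.11, and Eef1d was not called by DESeq2 or limma. This comparison and that of CPA1 with control rest on the same CPA1 libraries, and both comparisons with control share the control libraries.

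The occupancy in CPA18 was called for none of the 10 genes against control or against CPA1 by edgeR, and this held in each of the 19 alternatives, DESeq2 and limma included. Against control, 0.462% of all genes were called higher and 0.0144% lower, and against CPA1 0.0577% and 0.0144%. At an unadjusted p under 0.05, Tpt1 (-0.79 ± 0.30) and Btf3 (-0.64 ± 0.30) were lower than control, against 3.46% of all genes, and Eef1b2 (0.72 ± 0.31) and Eef1g (0.64 ± 0.30) were higher than CPA1, against 2.16%. Relative to the median gene, the mean log2 occupancy of Tpt1 was -0.95 ± 0.286 for control, -2.12 ± 0.384 for CPA1 and -1.80 ± 0.475 for CPA18 (SD, n = 3). The CPA18 value of Tpt1 lay closer to CPA1 than to control in experiments 1 and 2, and closer to control in experiment 3 (-1.38, between -0.80 in control and -2.36 in CPA1). Eef1a1 stood at 1.15 ± 0.156, -0.11 ± 0.505 and 0.58 ± 0.270, between the other groups in CPA18.

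Ribosomal protein mRNAs, the main body of the TOP class, are the natural comparison. In Ribo-seq, 55 of 79 were called lower in CPA1 and none higher, against 2.92% and 3.75% of all genes. Their median log2 change was -0.63, smaller in size than the -0.96 of the 10 genes. In CPA18, 67 of 79 were called higher than control, against 25.6% of all genes. Their median was 0.82 (0.40 above the median of all genes), where the 10 genes stood at 0.19 with 1 called higher. Rps20, a protein of the small subunit, had a Ribo-seq change of 1.31 ± 0.18 against control in CPA18, and Rpl12, of the large subunit, of 0.90 ± 0.19. In mRNA-seq 57 of 79 were called higher in CPA18, against 27% of all genes. Their median was 0.70, led by Rpl12 (1.56 ± 0.25), Rps20 (1.14 ± 0.25) and Rpl4 (1.10 ± 0.25). The Ribo-seq calls in CPA18 numbered 33 to 67 over 16 alternatives, with 33 when libraries were centred on the median gene, 37 with DESeq2 size factors and 38 with TMM. Over the same alternatives the Ribo-seq calls in CPA1 numbered 19 (without experiment 2) to 62, with 30 without the block, 30 without the disputed control library and 36 without experiment 1. The mRNA-seq calls in CPA18 fell to 0 without the block and to 5 without experiment 3. The differences between the lists were not tested.

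Other mRNAs counted as TOP mRNAs, mostly initiation factor subunits, had 5 of 10 members called lower in Ribo-seq in CPA1, at a median of -0.54, against 2.92% of all genes. Over 16 alternatives the count was 2 (without experiment 3) to 6, with 3 without the block. They were Eif3f (-1.23), Eif3k (-0.95), Eif3e (-0.93), Npm1 (-0.61), which encodes a nucleolar chaperone, and Eif3l (-0.54). Eif4b, at 0.20, was not called. The Eif3 subunits and Eif4b were named after their values were seen. In CPA18 the list stood at a median of -0.02 in Ribo-seq, with Eif3e called lower (-0.64) and none called higher, and in mRNA-seq Eif3m (0.83 ± 0.31) and Npm1 (0.83 ± 0.30) were called higher.

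Elongation, rescue and termination genes that are not counted as TOP mRNAs gave no call in Ribo-seq in CPA1 by edgeR, with 0 of 16 at a median of 0.10. Of all genes, 2.92% were called lower there and 3.75% higher, so a count of 0 of 16 is near these shares. The part of read depth in the missing calls was not tested. None of the 16 had an unadjusted p under 0.05, and limma and DESeq2 called none. At 18 h, 9 of the 16 rose in mRNA-seq and 1 fell, against 27% and 7.89% of all genes, and 7 rose in Ribo-seq, against 25.6%. The largest mRNA-seq changes were those of Eef1akmt3, a lysine methyltransferase of eEF1A (1.75 ± 0.51), Pelo, which rescues stalled ribosomes (1.69 ± 0.31), and Dph2, an enzyme of the diphthamide made on eEF2 (1.47 ± 0.36). Pelo and Dph2 were higher in each experiment. Eef1akmt3 stood at 8.24, 2.61 and 6.53 RPKM in control and 6.91, 21.4 and 17.5 in CPA18. It was thus lower in experiment 1, and its lowest control value came from the library with the disputed label. The gene that fell was Eef1a2, the paralog of Eef1a1 (-0.88 ± 0.36, adjusted p = 0.0454, edgeR). Its level was low, at 2.63, 4.86 and 2.07 mRNA-seq RPKM in control and 0.402, 2.70 and 1.80 in CPA18. The fall was largest in experiment 1 and small in experiment 3. Its Ribo-seq change was -0.92 ± 0.50 in CPA1 and -0.31 ± 0.53 in CPA18, neither called.

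The partners and paralogs of the nascent chain and poly(A)-binding genes likewise had 0 of 14 called in Ribo-seq in CPA1 by edgeR, DESeq2 and limma. By edgeR, 2.92% of all genes were called lower there and 3.75% higher. At an unadjusted p under 0.05, 1 of the 14 was higher and 2 were lower. In mRNA-seq in CPA18, 7 of 14 were called higher, against 27% of all genes. Srp9, a subunit of the signal recognition particle, rose by 1.93 ± 0.29. Paip2b, which binds and restrains the poly(A)-binding protein, rose by 1.52 ± 0.27, and Pabpc4, a paralog of Pabpc1, by 1.44 ± 0.49. The level of Pabpc4 was low, at 1.23, 1.76 and 0.934 mRNA-seq RPKM in control and 4.40, 2.37 and 4.65 in CPA18. Pabpc1 itself had a log2 mRNA-seq change of -0.62 ± 0.29 and was not called. In Ribo-seq, Srp9 rose by 1.52 ± 0.27 and Paip2b by 2.08 ± 0.39 in CPA18, while Pabpc4 stood at 0.05 ± 0.51. The rise of Paip2b was small in experiment 2, from 3.88 to 4.44 Ribo-seq RPKM. In experiments 1 and 3 it went from 5.49 to 26.8 and from 3.33 to 23.9.

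Among 8 measured regulators of TOP mRNAs, none was called in CPA1 in either assay by edgeR, DESeq2 or limma. By edgeR, 0 had an unadjusted p under 0.05. Of all genes, edgeR called 2.92% lower and 3.75% higher in Ribo-seq in CPA1, and 0.433% and 0.505% in mRNA-seq. In mRNA-seq in CPA18, 4 of the 8 rose, against 27% of all genes. Eif4ebp1, which encodes the 4E-BP1 that sequesters eIF4E, rose by 2.998 ± 0.31 in mRNA-seq and 3.61 ± 0.37 in Ribo-seq, and Rheb, the GTPase that activates mTORC1, by 1.28 ± 0.30 and 0.88 ± 0.25. Cnbp, which binds the leaders of TOP mRNAs, rose by 0.93 ± 0.25 and 0.53 ± 0.17. Larp1, at -0.21 ± 0.36 in mRNA-seq and 0.48 ± 0.35 in Ribo-seq, was not called. Eef2k, the kinase of eEF2, lacked reads in some library and was not tested. Without the block, the mRNA-seq calls of the last 4 lists in CPA18 fell to 0 of 10, 0 of 16, 1 of 14 and 1 of 8, and without experiment 3 to 0, 1, 4 and 2. RNA levels do not report the phosphorylation through which these proteins act.

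**Figure D5:**
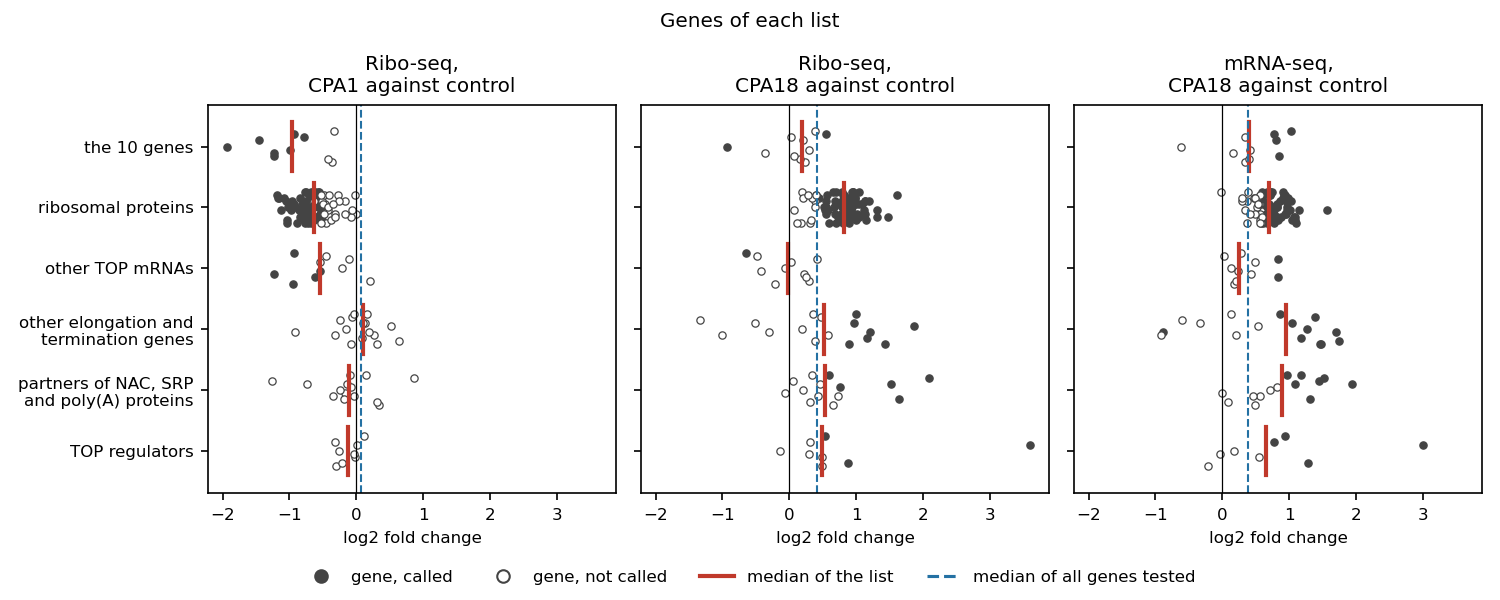
Log2 fold change of each gene in 6 lists for Ribo-seq in CPA1, Ribo-seq in CPA18 and mRNA-seq in CPA18 against control; filled points were called, red bars are list medians and the dashed line is the median of all genes. In CPA1 Ribo-seq the first 3 lists have medians from -0.54 to -0.96 and the other 3 lie between -0.12 and 0.10; in CPA18 Ribo-seq the ribosomal proteins stand at 0.82 and the 10 genes at 0.19.

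The genes whose occupancy most resembled the mean of the 10 genes were sought over the 9 pairs of libraries (3 treatments in 3 experiments), relative to the median gene, among 4433 genes with a mean RPKM of at least 5 in both assays. The most alike were Rps7 (Pearson's r 0.985), Rpl5 (0.971), Rpl31 (0.964), Rps3a1 (0.960) and Slc35c1, a GDP-fucose transporter (0.946). Among the 100 most alike genes, 42 were ribosomal protein genes, of 79 compared. Within the set, Eef1b2 (0.953) and Naca (0.935) followed the mean of the other 9 genes most closely and Eef1d (0.220) least. These values describe 9 points that share libraries and depth, and carry no p.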

How the data were processed

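MIN6 cells were profiled by mRNA-seq and Ribo-seq in 3 treatments and 3 independent experiments (18 libraries), grouped by the labels' treatment and assay. The authors kept reads of 15 to 40 bases and mapped them to mouse transcripts (Bowtie2 and GRCm38 in the submitters' processing notes). They deposited raw read counts per transcript, RPM values made from the counts and the library total, the transcript length, and RPKM values made from both. Recomputed RPKM values differed by at most 0.00111 (log2).

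The 10163 transcripts (of 30741) with at least 1 read in every library were summed to 6929 genes through RefSeq GRCm38.p6. Counts were tested with edgeR 4.0.16 (R 4.3.3; estimateDisp, glmQLFit, glmQLFTest), with the library total as size, the 3 treatments in each fit and the experiment as a block, as the replicate numbers mark independent experiments. Deviations from the treatment means correlated between libraries of one experiment with a mean r of 0.568 in mRNA-seq (0.112 to 0.762) and 0.142 in Ribo-seq (0.0801 to 0.190). The test of occupancy was the assay-by-treatment interaction in a fit of all 18 libraries. The Benjamini-Hochberg adjustment ran over all 6929 genes, with a threshold of 0.05, and intervals are 95% confidence intervals. The SE is the log2 change divided by the root of F. The code was tested on simulated data. Figures were drawn with matplotlib 3.10.9.

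Named in the text are the 10 members; from each further list of genes the 3 with the largest called change in CPA18 against control in mRNA-seq, and in occupancy in CPA1, where none was called; Eef1a2, Eef2k, Larp1 and Eif4ebp1; and the 5 genes of most similar occupancy. Eif3e, Eif3f, Eif3k, Eif3l and Eif4b fall outside this rule and were named after their values were seen. The members and the lists were chosen with earlier results of these data known. Alternatives were other scalings, filters, tests (limma 3.58.1 on log2(RPKM + 0.5) and log2(RPKM + 1), DESeq2 1.42.0), 1 transcript per gene, a transcript length offset, no block, and leaving out experiments or disputed libraries.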

Additional observations from a re-analysis of the deposited data

How the results depend on the processing

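Of 1530 member values recomputed under the alternatives, none that was called changed direction, 65 lost their call and 32 gained one, and 100 changed sign with no call on either side. All alternatives gave 7 calls in Ribo-seq in CPA1 and 0 in mRNA-seq in CPA1. Without the replicate block, the calls in mRNA-seq fell from 4 to 0 in CPA18 against control and from 6 to 0 in CPA18 against CPA1. Leaving out an experiment or a disputed control library gave 0 to 4 calls in CPA18 against control in mRNA-seq. They numbered 0 without experiment 3 and 2 without experiment 1 or the disputed control library. In CPA18 against CPA1 in mRNA-seq, 4 to 5 were called. In CPA18 against control in Ribo-seq, 1 to 2 were called, where 15.8% to 18.6% of all genes were called higher and 3.85% to 4.94% lower. With libraries centred on the median gene, 5 genes in place of 9 were called in Ribo-seq in CPA18 against CPA1. In occupancy in CPA1 against control, where the reported test called 0, there were 6 calls with the library total without Ins1, Ins2 and Lars2, 3 with TMM, 3 with DESeq2 size factors, 3 with median centring, 2 with DESeq2, 2 with no filter on transcripts and 1 with the length offset and the replicate block. The 2 tests on occupancy per experiment, with and without centring, were added after the data were seen and called 0. The cause of these shifts was not tested. Depth limits Eef1d, with 9 to 54 Ribo-seq reads per library, and Pabpc1, with 15 to 282.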
